A study of Mus musculus with 8 samples.

Results

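The carboxylesterase genes of mouse liver were compared between NZO mice, the obese and diabetes-susceptible strain, and lean B6 mice. The members were set by name as Ces1d, Ces1e, Ces1f, Ces1g, Ces2a, Ces2c, Ces2e, Ces3a and Ces3b, which are 9 genes with 12 probes among the 34779 genes and 55681 probes of the array. All samples were liver RNA of male mice at 6 weeks of age that received a diet with 45% fat, 4 mice of the strain NZO/HiBomDife and 4 of the strain C57BL/6, with 1 array and 1 colour per mouse. No mouse received another treatment, and no group without the diet was measured, so each difference is one between the strains on this diet. Both are inbred strains that differ throughout the genome, and the mice keep the numbers of their labels (NZO 003, 007, 009 and 011, B6 009, 010, 011 and 015).

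Carboxylesterases are serine hydrolases of the endoplasmic reticulum that cleave ester bonds of lipids, drugs and other foreign compounds. Hepatocytes are rich in them, and several take part in turning stored triglyceride over for lipid secretion. In the mouse, the family grew by tandem duplication, so that its genes stand side by side in clusters and resemble each other in sequence.

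Levels are given as the log2 of the background-subtracted probe signal minus the 75th percentile of the same array, so that 0 is the 75th percentile and a step of 1 stands for a ratio of 2. Differences are NZO minus B6 with the standard error (SE) of the limma fit over all 27639 probes above background. A probe was called when the Benjamini-Hochberg adjusted p was at most 0.05 and the log2 fold change at least 0.7 in size. The 75th percentile of the signal ranged from 119 to 142 on the NZO arrays and from 136 to 159 on the B6 arrays, with no saturated spot on any array, and 50.4% to 55.0% of the spots in NZO and 53.1% to 60.1% in B6 were well above background. The signal of all 12 member probes was well above background in every mouse.

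The positions of the probes, in the mm9 build of the array design, put all members on chromosome 8 in 2 clusters. Ces1d (chr8:95693648-95694933), Ces1e (chr8:95725207-95725266), Ces1f (chr8:95780225-95780284) and Ces1g (chr8:95826722-95826781) lie on the minus strand. Ces2a (chr8:107265289-107265348), the 3 Ces2c probes (between chr8:107378105-107378164 and chr8:107378292-107378351), the 2 Ces2e probes (chr8:107457772-107457831 and chr8:107458508-107458567), Ces3a (chr8:107582236-107582295) and Ces3b (chr8:107615484-107615543) lie on the plus strand. The Ces1d probe crosses an exon junction, as its 60 bases spread over 1286 bases of the genome, while each other member probe covers 60 bases without a gap. No annotation of this build was used, so the exon of each probe is not stated.

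The likeness of the duplicated genes reaches the probes, which bears on how each one can be read. A few of the stretches that probes of called genes share are shown to let this likeness be seen. The last 29 bases of the Ces1b probe match the first 29 of the Ces1d probe at 25 positions, in capitals:
Ces1b: tTCCATTaTTAAAAGAgGGTaCCTCAGAA
Ces1d: cTCCATTtTTAAAAGAtGGTgCCTCAGAA
The Ces2a probe and the Ces2c probe at base 1691 of the transcript share 23 of 28 bases where they align:
Ces2a: TTCTCAGGACAAGCAtgcaGAGCTgTAG
Ces2c: TTCTCAGGACAAGCAcaggGAGCTtTAG
The Ces2c probes at bases 1844 and 1878 overlap in the same 26 bases, so they are not independent measurements:
Ces2c: TGAAAAATACTCTGTATTACTTATCA
According to the array's own list, the Ces2c probe at 1691 also fits transcripts of Ces2b and Ces2d-ps, the other Ces2c probes fit Ces2d-ps, and the Ces3a probe fits Ces3b. Their signals may hold RNA of these relatives.

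Of the 12 member probes, 2 were called higher in NZO, which are those of Ces1d and Ces1e, 5 were called lower, which are that of Ces2a, all 3 of Ces2c and 1 of the 2 of Ces2e, and 5 were neither. Among all tested probes, 4.33% were called higher and 5.28% lower. The median log2 fold change was -0.14 over the member probes and 0.01 over all tested probes. These counts and this median weigh Ces2c 3 times and Ces2e 2 times. By the brightest probe of each gene, Ces1d and Ces1e were called higher, Ces2a and Ces2c lower, and the other members neither. The middle log2 fold change by those probes was that of Ces3a, at 0.13. The levels of the 4 NZO arrays did not overlap those of the 4 B6 arrays for 9 of the 12 member probes, against 22.0% of all tested probes. The members were chosen with earlier results of these data known, so these shares describe them and do not test them against the array. The called members of the Ces1 group were thus all higher in NZO and those of the Ces2 group all lower, while both Ces3 genes were not called. In whole liver, fewer cells of a type and less RNA per cell cannot be told apart. The labels do not say whether the mice were litter mates. The p-values therefore set the strain difference only against the spread within the strains of these 8 samples.

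**Figure D1:**
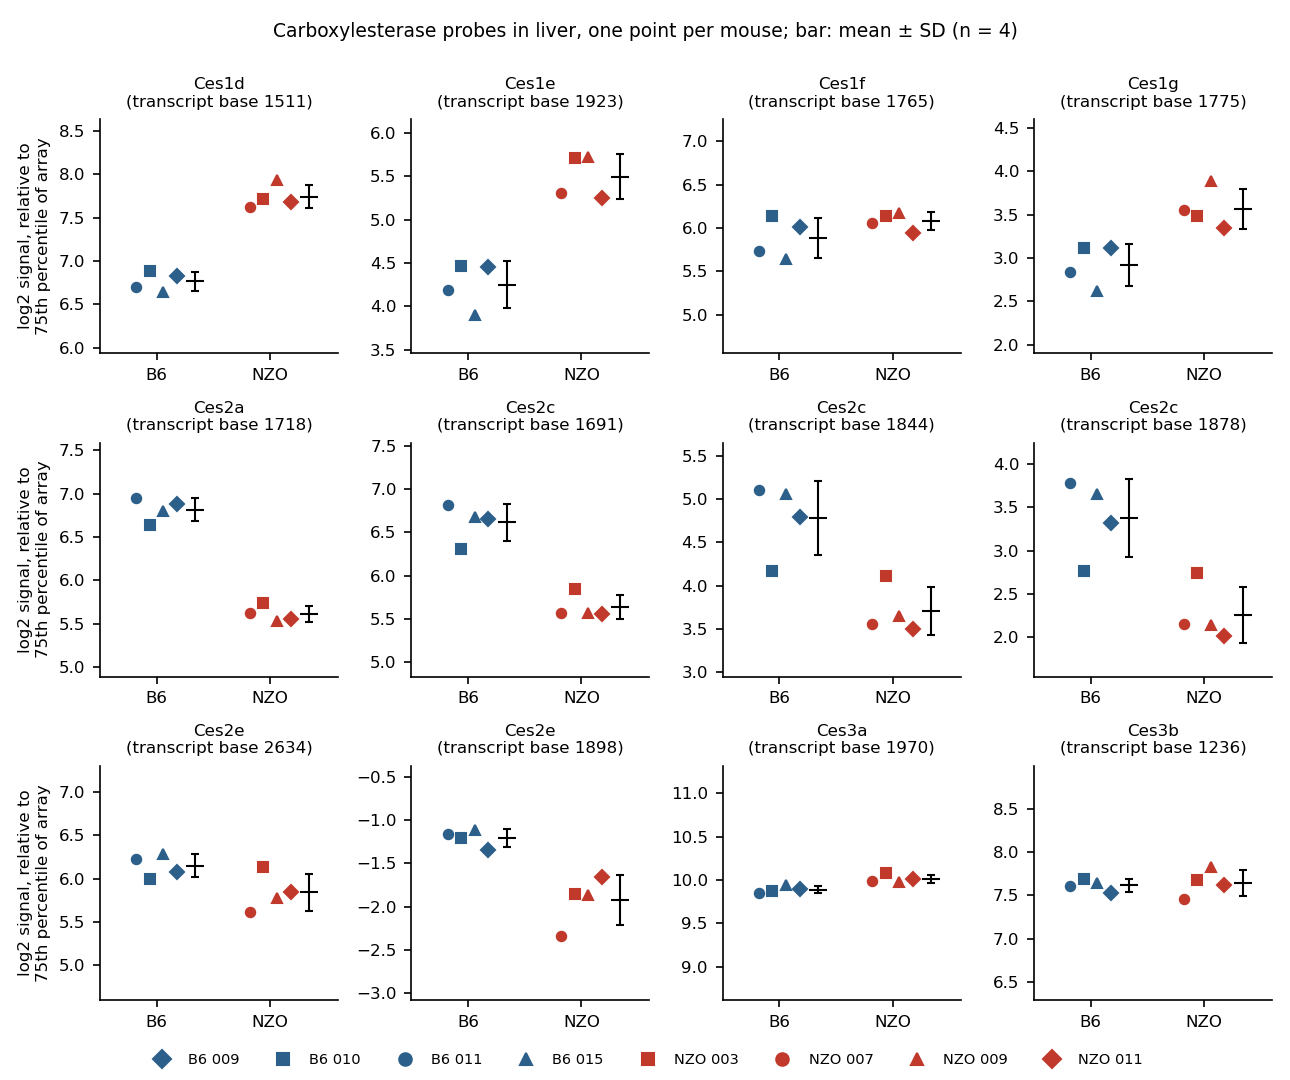
Level of each member probe (log2 signal relative to the 75th percentile of the array) in 4 B6 and 4 NZO mice, with the mean and SD of each strain beside the points, and the same height of axis in every panel. The NZO points of Ces1d and Ces1e lie above all B6 points, those of Ces2a and Ces2c lie below them, and the points of Ces1f, of Ces3b and of the Ces2e probe at base 2634 mix.

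Ces1d is the triacylglycerol hydrolase of the endoplasmic reticulum, known for mobilising stored triglyceride for very low density lipoprotein (VLDL) assembly. Its level was 7.63, 7.72, 7.93 and 7.69 in NZO 007, 003, 009 and 011, and 6.70, 6.89, 6.64 and 6.83 in B6 011, 010, 015 and 009. The lowest NZO mouse was above the highest B6 mouse by more than the spread within either strain. The log2 fold change was 0.98 (SE 0.11, adjusted p = 0.000548), a signal 1.97-fold higher in NZO.

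Ces1e encodes egasyn, the esterase that holds β-glucuronidase in the endoplasmic reticulum. In the same order of mice, its level was 5.30, 5.71, 5.72 and 5.25 in NZO and 4.19, 4.46, 3.90 and 4.45 in B6. The strains were again separate, with the log2 fold change at 1.24 (SE 0.18, adjusted p = 0.00211), or 2.37-fold. The partner of egasyn, β-glucuronidase itself (Gusb), had a log2 fold change of 0.16 (SE 0.09, adjusted p = 0.302) and was not called.

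Ces1g, a hydrolase known to restrain lipid synthesis in the liver, had levels of 3.55, 3.48, 3.89 and 3.34 in NZO and 2.85, 3.12, 2.62 and 3.11 in B6. All NZO mice were above all B6 mice, and the adjusted p of 0.0322 passed, but the log2 fold change of 0.64 (SE 0.16) stayed short of the limit of 0.7. It passed the limit when NZO 011 (0.72), B6 010 (0.71) or B6 009 (0.71) was left out. Ces1f, a related triglyceride hydrolase, had 6.06, 6.14, 6.17 and 5.95 in NZO and 5.74, 6.14, 5.64 and 6.01 in B6. Here the strains overlapped, at a log2 fold change of 0.20 (SE 0.13, adjusted p = 0.374).

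Within the strains, NZO 009 was the highest NZO mouse and B6 015 the lowest B6 mouse for each of Ces1d, Ces1e, Ces1f and Ces1g. For Ces1b and Ces1c, which are described further on, B6 015 was instead the highest B6 mouse, at 2.73 and 7.88. Without B6 015 the log2 fold change of Ces1d was 0.94, and without NZO 009 it was 0.91, both still called.

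Ces2a belongs to the Ces2 enzymes, which cleave drug esters with small acyl groups and have been linked to acylglycerol breakdown in liver. Its level was 5.62, 5.74, 5.53 and 5.56 in NZO 007, 003, 009 and 011, and 6.95, 6.64, 6.79 and 6.88 in B6 011, 010, 015 and 009. The gap between the strains was several times the SD within them, which was 0.09 in NZO and 0.14 in B6. The log2 fold change of -1.20 (SE 0.10, adjusted p = 0.000152) was the largest of the decreases among the member probes, a signal 2.30-fold lower in NZO.

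Ces2c, the Ces2 enzyme best known for acylglycerol hydrolysis in mouse liver, was lower with each of its probes. At base 1691, NZO had 5.57, 5.84, 5.57 and 5.56 and B6 6.81, 6.31, 6.68 and 6.65, a log2 fold change of -0.98 (SE 0.13, adjusted p = 0.0018). At base 1844, NZO had 3.56, 4.11, 3.65 and 3.50 and B6 5.10, 4.17, 5.05 and 4.79, a log2 fold change of -1.07 (SE 0.23, adjusted p = 0.0167). In both cases NZO 003 was the highest NZO mouse and B6 010 the lowest B6 mouse, and at base 1844 they were almost level. At base 1878, these mice had 2.74 and 2.77, and the log2 fold change was -1.12 (SE 0.25, adjusted p = 0.0194). The 3 probes did not differ in their fold changes beyond error: the differences between them were 0.04 to 0.14 with adjusted p = 0.635 (limma on the within-array differences, adjusted over 4 pairs of probes).

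The calls at bases 1844 and 1878 depended on single mice. Without B6 015 the former had a log2 fold change of -0.98 (adjusted p = 0.0505) and the latter of -1.02 (adjusted p = 0.0576). The latter was also lost without B6 011 (adjusted p = 0.0541), NZO 009 (adjusted p = 0.0514) or NZO 011 (adjusted p = 0.0545). The probe at base 1691 was called in each of the 8 fits without 1 mouse.

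The 2 probes of Ces2e, a further Ces2 esterase, did not give the same call. The probe at base 2634 had 5.62, 6.14, 5.77 and 5.84 in NZO and 6.23, 6.00, 6.28 and 6.08 in B6, with overlap between the strains and a log2 fold change of -0.31 (SE 0.13, adjusted p = 0.179). The dimmer probe at base 1898 had -2.34, -1.85, -1.86 and -1.66 in NZO and -1.16, -1.21, -1.12 and -1.35 in B6, without overlap, at -0.72 (SE 0.15, adjusted p = 0.015). Its call was lost without NZO 007 (-0.58) and without B6 015 (-0.69), and also with normexp background correction (-0.26), the deposited table minus its 75th percentile (-0.42) or as given (-0.61) and quantile normalization (-0.69). The difference between the fold changes of both probes was 0.41 (SE 0.14, limma adjusted p = 0.0596 over the 4 pairs).

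Ces3a and Ces3b, hydrolases found mainly in liver and close relatives of each other, were not called. Ces3a lay between 9.97 and 10.08 in NZO and between 9.85 and 9.94 in B6. These narrow ranges did not overlap, yet the log2 fold change was 0.13 (SE 0.08, adjusted p = 0.356). Ces3b lay between 7.46 and 7.82 in NZO and between 7.52 and 7.69 in B6, with a log2 fold change of 0.03 (SE 0.10, adjusted p = 0.885). The sign of both turned under quantile normalization (Ces3a -0.03, Ces3b -0.11) and with the deposited table as given (-0.07 and -0.21), so that no direction is given for the Ces3 genes. In that table, which is unscaled, the median of all tested probes was itself at -0.15, and 28.8% of the called probes were higher in NZO, against 45.1% here. The calls of Ces1d, Ces1e, Ces2a and Ces2c were kept under both of these settings, while Ces1f (-0.07) and Gusb (-0.06) also turned in sign with the deposited table as given.

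**Figure D2:**
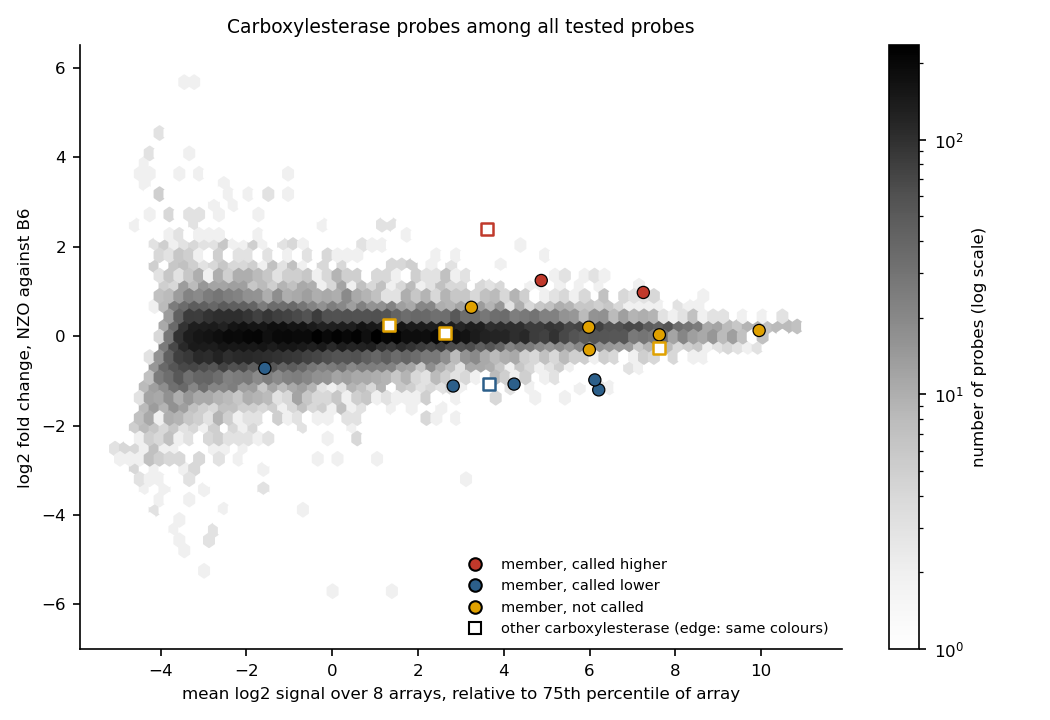
Log2 fold change (NZO minus B6) against the mean level over 8 arrays (log2 signal relative to the 75th percentile of the array) for all 27639 tested probes in grey, with the 12 member probes as circles and 5 other carboxylesterase probes as squares. The called member probes range from -1.20 (Ces2a) to 1.24 (Ces1e), and the dimmer Ces2e probe, at -0.72, lies just past the limit of 0.7.

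The other carboxylesterase genes of both clusters give the setting of the members. Of 11 such genes, 5 could be tested, of which 1 was called higher (Ces1b), 1 lower (Ces2b) and 3 neither, with a median log2 fold change of 0.06. By the brightest probe of each gene, 4.40% of the 20093 tested genes were called higher and 4.97% lower, with a median of 0.03. Ces1a, Ces1h, Ces2f, Ces2h and both probes of Ces5a did not reach the background limit and were not tested, and Ces2d-ps had no probe of its own.

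Ces1b had the widest difference of the tested family probes. Its level was 4.51, 4.83, 5.09 and 4.81 in NZO and 2.30, 2.39, 2.73 and 2.23 in B6, a log2 fold change of 2.40 (SE 0.16, adjusted p = 3.73e-05) or 5.27-fold. The probe of Ces1c, the esterase secreted into plasma, matches the Ces1b probe at 49 of 55 aligned bases and had a log2 fold change of -0.27 (SE 0.12, adjusted p = 0.172), so it was not called. Ces1b and Ces1c lie on the side of Ces1d away from Ces1e, so that the order along the chromosome ran from a call (Ces1b) through none (Ces1c) to calls again (Ces1d and Ces1e).

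Ces2b lies between Ces2a and Ces2c. It had 2.96, 3.56, 3.12 and 2.81 in NZO and 4.74, 3.47, 4.47 and 4.03 in B6, at a log2 fold change of -1.06 (SE 0.28, adjusted p = 0.0416). B6 010 fell within the range of NZO. The call was lost in 6 of the 8 fits without 1 mouse, namely without NZO 007, 009 or 011 or without B6 011, 015 or 009, with log2 fold changes of -0.88 to -1.11. Its probe also shares 31 of 34 aligned bases with the Ces2c probe at 1844. Ces2g, at the far side of Ces2e, had a log2 fold change of 0.06 (SE 0.10, adjusted p = 0.708), and Ces4a of 0.26 (SE 0.36, adjusted p = 0.69).

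**Figure D3:**
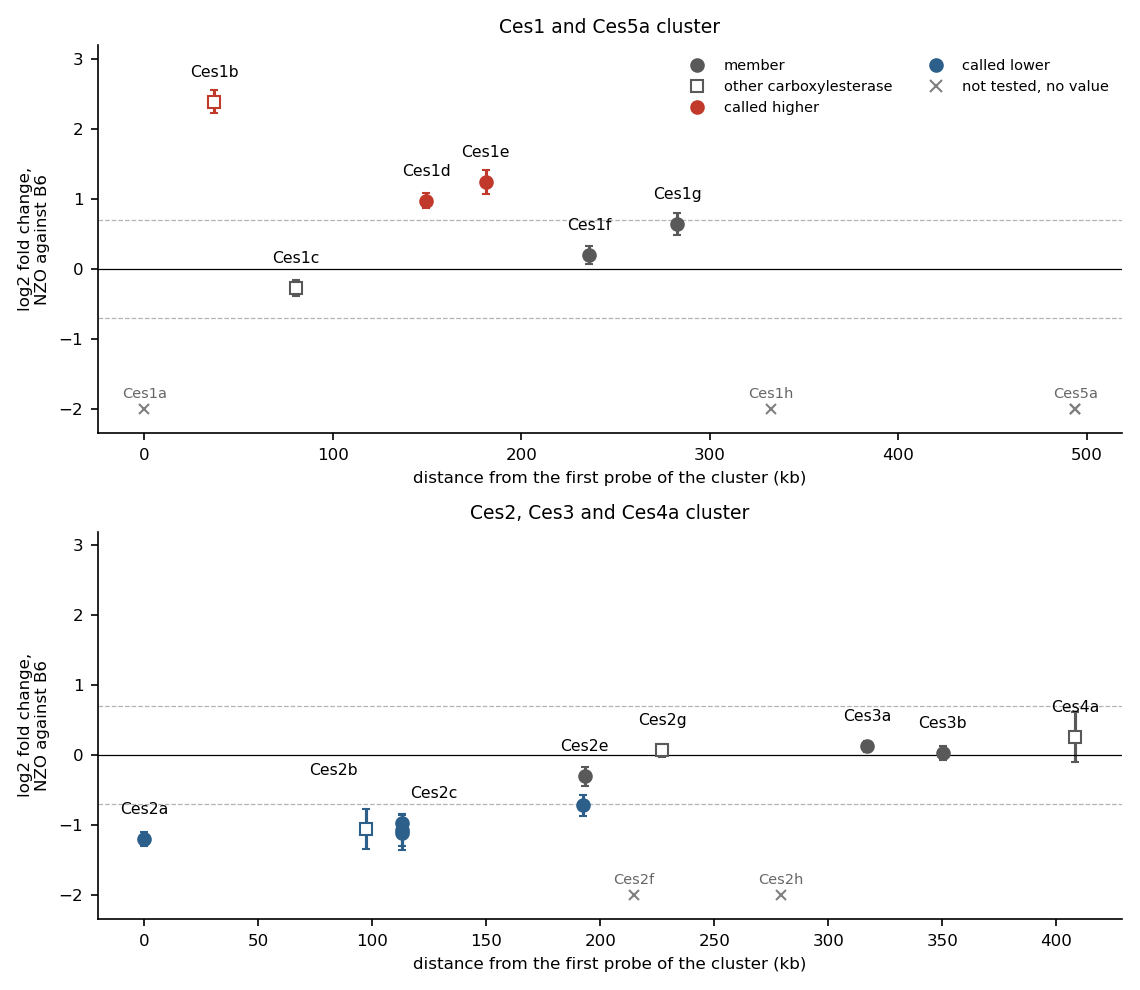
Log2 fold change (NZO minus B6) with its SE for each tested carboxylesterase probe, against the distance in kb from the first probe of its cluster. Filled circles are members, open squares other family genes, red and blue mark called probes, grey the rest, dashed lines the limit of 0.7, and crosses the untested genes at an arbitrary height. Ces1b at 2.40 stands beside Ces1c at -0.27, and the decreases run from Ces2a at -1.20 to the dimmer Ces2e probe at -0.72.

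The genes that flank the clusters were compared in the same way, taking the nearest 3 measured protein-coding genes on each side. Of 12 neighbours, 0 were called higher and 1 lower in limma, with a median log2 fold change of 0.03 and 5 at an unadjusted p below 0.05. Such p-values were common on this array, as an unadjusted limma p of 0.0496 (the brighter Ces2e probe) stood at an adjusted p of 0.179. Here and in the lists below, these counts are not set against the share of all probes and are not read as an excess. The called one, Rpgrip1l, a gene of the ciliary transition zone beside the Ces1 cluster, had -1.10 (SE 0.27), but was well above background on only 1 of the 4 NZO arrays. On the other side of that cluster, Nudt21 had 0.05 (SE 0.09) and Ogfod1 0.02 (SE 0.15). Car7 at 0.22 (SE 0.14) and Cbfb at -0.04 (SE 0.20) flank the Ces2 and Ces3 cluster.

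Mouse by mouse, the Ces2 probes showed a second pattern. NZO 003 was the highest NZO mouse and B6 010 the lowest B6 mouse for Ces2a, Ces2b, each Ces2c probe and the brighter Ces2e probe. Among the member probes, the deviation from the mean of the strain reached 0.48 in NZO 003, for Ces2c at base 1878, and -0.61 in B6 010, for Ces2c at bases 1844 and 1878. For Ces1d, Ces1e, Ces1f and Ces1g, B6 010 was instead the highest B6 mouse. These arrays share 1 of the 5 slides, which also carried B6 015.

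**Figure D4:**
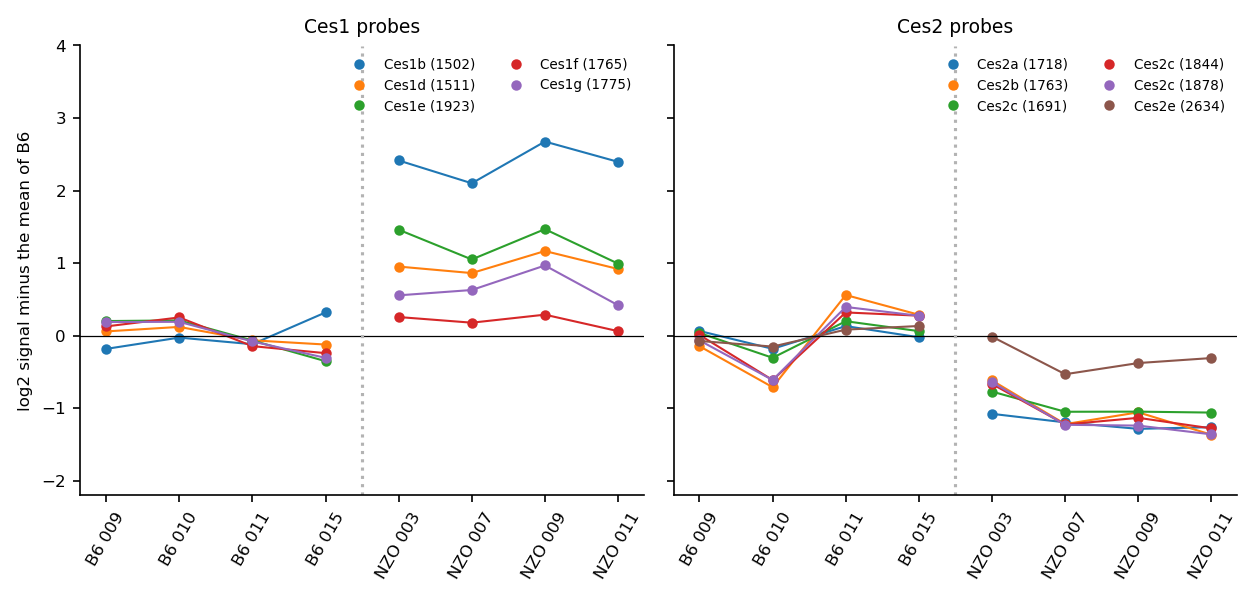
Level of each probe in each mouse minus the mean of the 4 B6 mice, on the log2 scale, for 5 Ces1 probes (left) and 6 Ces2 probes (right), with the base of the transcript in brackets and lines joining the mice of a strain only to guide the eye. The Ces2 lines dip in B6 010 and peak in NZO 003, and the Ces1 lines peak in NZO 009.

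Within that slide, NZO 003 minus the mean of B6 010 and B6 015 was 0.95 for Ces1d, 1.53 for Ces1e, -0.98 for Ces2a, -0.65, -0.50 and -0.47 for the 3 Ces2c probes and -0.69 for the dimmer Ces2e probe. With the slide as a fixed term, which leaves these 3 arrays to carry the comparison, none of the member probes was called by limma. For the 3 Ces2c probes these values were smaller than those over all mice by over 1.5 times, as they were for Ces2b (-0.41) and for the brighter Ces2e probe (-0.0056). Within the first scan day (3 NZO, 2 B6 mice) the differences were 1.01, 1.38, -1.11, -0.84, -0.86, -0.91 and -0.63 in the same order. Within the second (1 NZO, 2 B6 mice) they were 0.87, 0.98, -1.29, -1.17, -1.39, -1.39 and -1.08. All kept the direction.

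The promoter table of RefSeq (GRCm38.p6, 250 bases before to 50 after the start of each gene) held 6 of the 9 members, without Ces1d, Ces1f and Ces3a. A pair of short words was found by reading these promoters after the values were known, and both strands were searched for them. AACTTT stands 71, 73 and 81 bases before the start of Ces2a, Ces2c and Ces2e, in a like surrounding, while TTATGTAA stands 81 bases before that of Ces1e and 232 before that of Ces1g. The words do not overlap in any window shown, and capitals mark them in the following 30 bases, which are shown because Ces2a and Ces2c were called lower and Ces1e higher, with Ces2e, called by 1 of its 2 probes, and Ces1g, not called, beside them:
Ces2a (chr8:104733921-104733950, plus strand): tctgcaataagAACTTTgccccatccaatc
Ces2c (chr8:104846984-104847013, plus strand): cctgcaatgagAACTTTcacccgtcacaca
Ces2e (chr8:104926168-104926197, plus strand): ttggcaatacgAACTTTgccccgccctagt
Ces1e (chr8:93229682-93229711, minus strand): ctgagagatatTTATGTAAgaagttgtttg
Ces1g (chr8:93337423-93337452, minus strand): ggggagaaacaTTATGTAAgatgttccttg
AACTTT is present in 14.1% and TTATGTAA in 0.938% of the 32851 promoters of that table. Of the family, Ces2f also held the former, and Ces1a, Ces1b and Ces1c the latter. Of the tested genes with TTATGTAA, Ces1b and Ces1e were called higher and Ces1c and Ces1g were not called, and of those with AACTTT, Ces2a, Ces2c and 1 probe of Ces2e were called lower. Ces2b, also called lower, was not among the genes found with AACTTT. As the words were picked with the calls known, this tally ties neither word to a direction. A match is a description of the letters only.

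Genes around the carboxylesterases in lipid and drug metabolism were taken from fixed lists. Of 20 other esterases and lipid hydrolases of liver, 19 were tested and 2 were called higher, with 0 lower and a median log2 fold change of 0.07. An unadjusted p below 0.05, which was common on this array, was seen for 7 of them. Lipa, the lysosomal acid lipase, had 4.74, 5.19, 5.05 and 5.06 in NZO and 3.80, 4.04, 3.89 and 4.03 in B6, which did not overlap, at 1.07 (SE 0.12, adjusted p = 0.000737). Bche, butyrylcholinesterase, had a log2 fold change of 0.81 (SE 0.13, limma adjusted p = 0.00333). With the deposited table as given, only 1 gene of this list was called higher. The monoglyceride lipase Mgll at 0.53 (SE 0.15), the arylacetamide deacetylase Aadac at -0.32 (SE 0.13), adipose triglyceride lipase (Pnpla2) at -0.13 (SE 0.16) and hormone-sensitive lipase (Lipe) at 0.01 (SE 0.14) were not called, and Lipg was at background. Pnpla3, a lipid droplet lipase of liver, was not called by its brighter probe (1.08, SE 0.40), but its other probe was called higher.

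Of 8 genes for triglyceride synthesis and VLDL assembly, the process that Ces1d serves, 0 were called by limma, with a median of 0.04, while 2 had an unadjusted p below 0.05 and 1 an adjusted one. The last was Mttp, the microsomal triglyceride transfer protein, at 0.64 (SE 0.12, adjusted p = 0.00984), under the fold limit, and it was called when NZO 007 was left out. Apob was at -0.15 (SE 0.10), Dgat2 at 0.17 (SE 0.09) and Cideb at 0.07 (SE 0.10).

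Of 9 nuclear receptors and other regulators of liver metabolism, 1 was called, with a median of 0.02. Nr1i3, the constitutive androstane receptor that controls drug-metabolising genes, had 2.56, 2.39, 2.997 and 2.53 in NZO and 3.59, 3.66, 3.41 and 3.84 in B6. Every NZO mouse was below every B6 mouse, at a log2 fold change of -1.01 (SE 0.16, adjusted p = 0.00337), and its other probe was called lower as well. The pregnane X receptor Nr1i2 at -0.01 (SE 0.22), Ppara at 0.06 (SE 0.16), Hnf4a at 0.03 (SE 0.12) and Nfe2l2 at -0.22 (SE 0.21) were not called.

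**Figure D5:**
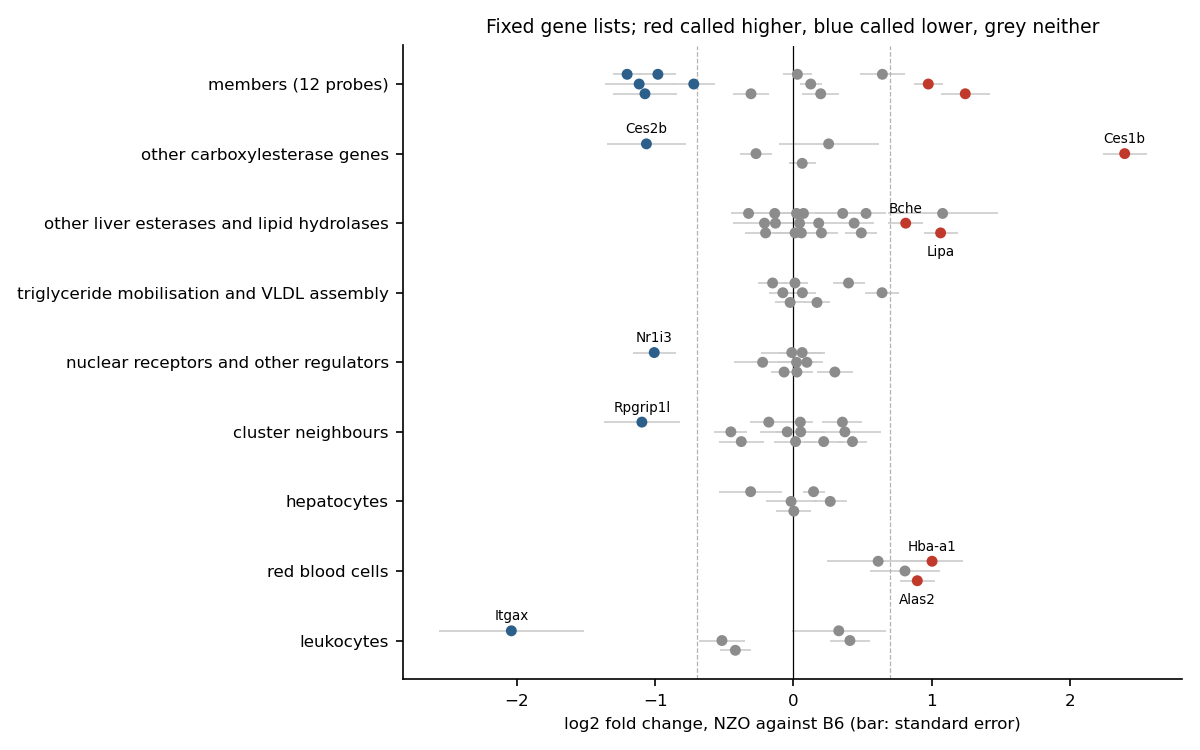
Log2 fold change (NZO minus B6) with its SE for the 12 member probes and the tested genes of the fixed lists, each gene by its brightest probe, with called genes in red (higher) or blue (lower) and dashed lines at the limit of 0.7. The members spread from -1.20 to 1.24, while most points of the other lists gather near 0, with Lipa at 1.07 and Nr1i3 at -1.01 among the exceptions.

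Markers of liver cells and of other tissues were read for the same mice. The label of the tissue held: Alb, Ttr, Apoa1, Cps1 and Tat, the hepatocyte markers, were well above background in all mice, and 0 of 5 were called by limma, with 0 at an unadjusted p below 0.05. Their summed signal, in units of the 75th percentile of each array and led by Alb, was 3790 to 3920 in NZO and 3000 to 3770 in B6.

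Of 4 red blood cell markers, 2 were called higher in NZO by limma, and 3 had an unadjusted p below 0.05. Hba-a1 at 1.00 (SE 0.22) and Alas2 at 0.90 (SE 0.13) were called higher, and Hbb-b1 and Slc4a1 were not, at 0.81 (SE 0.25) and 0.61 (SE 0.37). The summed signal of these 4 genes, led by Hba-a1, was 366, 318, 470 and 293 in NZO 007, 003, 009 and 011, and 208, 165, 155 and 197 in B6 011, 010, 015 and 009. NZO 009 was thus the highest and B6 015 the lowest of all, which are also the highest and the lowest mouse of their strains for Ces1d, Ces1e, Ces1f and Ces1g, whereas for Ces1b and Ces1c both were the highest mouse of their strains. B6 010, the highest B6 mouse for Ces1d to Ces1g, had the second-lowest sum, and B6 011 had the highest sum of the B6 mice. The part of the red blood cell markers in the Ces1 result was not tested.

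Of 5 leukocyte markers, 1 was called lower and 4 had an unadjusted p below 0.05, with a median log2 fold change of -0.42. The called one, Itgax, was at -2.04 (SE 0.53), though at background on 2 NZO arrays. Cd68 was at -0.42 (SE 0.11, adjusted p = 0.0445), without overlap between the strains but short of the fold limit, Ptprc at -0.52 (SE 0.17), Lyz2 at 0.41 (SE 0.15) and Cd3e at 0.33 (SE 0.34). The summed signal of the 5, led by Cd3e, overlapped between the strains (10.8 to 18.8 in NZO, 10.8 to 13.4 in B6), and the part of these markers in the carboxylesterase results was not tested. Among adipocyte markers, Adipoq, Plin1 and Lep were at background in all mice and 0 of the 3 tested ones were called by limma, with 1 at an unadjusted p below 0.05. Their sum, 565 to 644 in NZO and 409 to 481 in B6, was led by Car3, which liver also expresses and which had 0.47 (SE 0.10). Of 6 markers of exocrine pancreas, Cela3b, Pnlip, Cpa1 and Prss2 were at background in all mice, while Ctrb1, at 0.37 (SE 0.21), and Cela1, at -0.53 (SE 0.25), were well above it in all mice and not called. The sum of the 6, led by Ctrb1, was 1.36 to 2.30 in NZO and 1.29 to 1.75 in B6. Skeletal muscle genes, led by Myh4, summed to 16.4 in NZO 007 and to 5.49 in B6 010, against 0.186 to 1.39 in the other 6 mice. Without NZO 007 the log2 fold changes of Ces1d and Ces2a were 1.01 and -1.21. Without B6 010 they were 1.02 and -1.26, and both genes were still called in either fit. When NZO 007 was left out, 2 member probes were called higher and 4 lower. The dimmer Ces2e probe (-0.58) and Ces2b (-1.01) lost their calls in that fit.

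The genes whose mouse-to-mouse pattern was most like that of the members were ranked by the correlation of deviations from the strain means over the 8 arrays, where the pattern of the members was the mean of their 9 brightest probes. Among 13260 genes well above background on all arrays, they were Ano1 (r = 0.98), Elovl2 (r = 0.98), Cdh2 (r = 0.98), Osgepl1 (r = 0.97) and Armcx5 (r = 0.96). The 8 points share their arrays, so this is a ranking without a test. The member pattern itself was shallow, from -0.09 in NZO 007 and NZO 011 to 0.10 in NZO 003, as the Ces1 and Ces2 probes deviated in opposite directions in several mice.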

How the data were processed

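Liver RNA of 4 NZO and 4 B6 mice was labelled with Cy3 and hybridised to Agilent arrays with 1 colour, 1 array per mouse. The deposited scanner files hold intensity values that the authors made with Agilent Feature Extraction, version 11.0.1.1 per the file headers and 9.1 per the submitters' processing notes. The processed intensity is background-subtracted and corrected within the array, not scaled between arrays. A further deposited table equalled the raw median intensity for 59305 of 59305 spots on each array (tolerance 0.01).

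Here, spots of controls and those marked as outliers (96 to 137 on an array) were removed, log2 of the processed signal minus the 75th percentile of the array was averaged over the spots of a probe, and probes well above background on all 4 arrays of a strain were kept (27639 of 55681). limma 3.58.1 in R 4.3.3 (data.table, version 1.17.8) compared the strains without a block, with Benjamini-Hochberg adjustment. The thresholds are those of the study, but limma on adjusted p replaced its test. Each carboxylesterase probe was kept apart, and other genes were read by their brightest probe. Symbols came from the array and a RefSeq gene table (27656 probes by accession, 81 by another accession, 3349 by symbol, 313 by synonym, 24282 unmatched). Named were all members, all other carboxylesterases, called list genes with some uncalled ones of known role, and the 5 most alike genes. Members and lists were chosen with earlier results of these data known. Python 3.11.15 with pandas 2.3.3, numpy 2.4.6 and matplotlib 3.10.9 made tables and plots. The fit was tested on simulated data.

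The alternatives were normexp (offset 50), quantile normalization, the deposited table as given or minus its 75th percentile, no filter on dim probes, slide (random or fixed), scan day, mouse number as a block, the methods' t-test, unadjusted p and leaving out each mouse. The probes follow the reference sequence, and whether NZO carries variants under them was not tested. The values of 1 list gene are not reported here, and it is part of the counts and medians of its list. The number of arrays limits the precision.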

Additional observations from a re-analysis of the deposited data

Results flagged for a closer look

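In each strain of 4 arrays, a mouse was looked at again when its distance to the nearest other mouse took up more of the range of the group than Dixon's critical value allows. This was met in 16 of 174 groups of the carboxylesterase probes and the list genes, where chance gives about 1 in 20.

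Among the carboxylesterases, NZO 003 stood above the other NZO mice with the Ces2c probe at base 1691, at 5.84 against a mean of 5.56, and B6 011 stood above the other B6 mice for Ces4a, at 2.27 against 0.83. Among the genes of lipid and ester metabolism, B6 010 was high for Pnpla8 (-1.57 against -1.94), Ephx2 (6.67 against 6.54) and Mttp (3.76 against 3.61), while B6 015 was low for Pon1 (5.84 against 6.27) and high for Dgat2 (8.10 against 7.90). Among the markers, B6 011 was low for Tat (5.77 against 6.56) and Ctrb1 (-0.23 against 0.35), and B6 015 was low for Cela1 (-2.55 against -1.65) and high for Itgax (-1.18 against -1.93). NZO 007 was high for Cd68 (1.79 against 1.45) and for the skeletal muscle actin Acta1 (2.81 against -3.59). Among the neighbours of the clusters, NZO 009 was low for Car7 (2.43 against 2.84), B6 010 for Ciao2b (2.12 against 3.26) and NZO 011 for B3gnt9 (-3.46 against -2.83). B6 010 and B6 015 account for 8 of the 16 cases and were hybridised on the same slide.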

How the results depend on the processing

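Neither Gusb nor any tested carboxylesterase probe changed its direction past a threshold under any alternative. The markers of cells and tissues were not run under the alternatives. Ces1d, Ces1e, Ces2a and the Ces2c probe at base 1691 were called in 18 of 20 alternatives, all but the slide as a fixed term and the replicate block, and Ces1b in 19, while the Ces2c probe at 1844 was called in 16, that at 1878 in 12, the dimmer Ces2e probe in 11 and Ces2b in 8. All probes: 1198 were higher and 1460 lower as reported, against 619 and 580 with normexp, 575 higher with the deposited table as given, 819 lower with that table minus its 75th percentile, 497 higher with the slide as a fixed term, and 890 lower by the methods' t-test after Benjamini-Hochberg adjustment (831 higher). At the methods' threshold without adjustment that test gave 1291 and 1609. The mouse numbers 009 and 011 occur in both strains but did not pair the mice (correlation of deviations -0.259 and -0.004), and the fit with the number as a replicate block, in which these 4 mice alone bear on the comparison, left 72 probes higher and 134 lower, with 0 of the members, 0 of Ces1b and Ces2b, 0 of the hydrolases, 0 of the regulators and 0 of the neighbours called. The log2 fold changes in that fit were 1.05 for Ces1d, 1.16 for Ces1e, -1.37 for Ces2a, -1.17, -1.37 and -1.46 for the Ces2c probes, -0.51 for the dimmer Ces2e probe, 2.685 for Ces1b and -1.42 for Ces2b. With the slide as a fixed term, 0 member probes were called in either direction, and 1 hydrolase and 0 regulators. By the methods' t-test after adjustment, 2 member probes were lower. Leaving out 1 mouse gave 2 to 3 member probes higher and 2 to 5 lower, and the lowest number of lower ones, 2, came without B6 015. The call of Ces2b was lost (0) with no filter on dim probes, the slide as a random or fixed term, the scan day as a term and the adjusted t-test, and gave 0 to 1 when leaving out 1 mouse. The deposited table as given left 1 hydrolase higher. Without NZO 007, 1 gene of VLDL assembly (Mttp) was higher, against 0 otherwise, a range of 0 to 1. The neighbour Rpgrip1l was not called (0) with normexp, both forms of the deposited table, no filter, the scan day, the block and the adjusted t-test, and in 0 to 1 when leaving out 1 mouse. The cause of these changes was not tested. Under normexp the dimmer Ces2e probe had a log2 fold change of -0.26. Low signal limits what can be read, since the median raw intensity of a spot was 1.72 to 1.82 times its local background in NZO and 1.79 to 2.0 times in B6.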
